A study of Mus musculus with 12 samples.

Results

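The 10 genes described here encode enzymes of mitochondrial fatty acid beta-oxidation: Cpt1b, Cpt2, Acadvl, Acadl, Acadm, Hadha, Hadhb, Hadh, Etfdh and Acaa2. They were taken by gene symbol from a table of 17752 genes, all 10 were found, and all 10 passed the filter on low values with which 12744 genes were tested. The table holds FPKM, fragments per kilobase of transcript scaled by sequencing depth, from RNA-seq of extensor digitorum longus (EDL), a fast-twitch hind limb muscle, of male mice. There were 4 groups of 3 libraries each, 12 in all: WT sedentary, strNrip1-/- sedentary, WT trained and strNrip1-/- trained. Training was voluntary wheel running for 8 weeks from 8 weeks of age with wheels taken away 48 hours before the end, and sedentary mice were kept for the same time without running. All mice carried the floxed Nrip1 allele, and the strNrip1-/- mice also carried a Cre recombinase driven by the muscle creatine kinase promoter, which is active in both heart and skeletal muscle. WT animals were littermates without Cre, so Cre and deletion come together, and the parental lines were of the C57BL/6J and C57BL/6JN backgrounds. Each muscle came from a cohort kept for RNA, and nothing in the labels says more of how the 3 libraries of a group were separated, so p-values measure the spread between these libraries. The comparisons ask which of these genes differ between the genotypes in each training state, which differ with training in each genotype, and whether the first differs with the second.

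Beta-oxidation shortens fatty acids inside the mitochondrion by repeating rounds of oxidation, hydration, oxidation and thiolysis. Long-chain fatty acids are first activated to acyl-CoA, moved onto carnitine by CPT1 at the outer membrane, carried across the inner membrane and returned to CoA by CPT2. Chain-length-specific acyl-CoA dehydrogenases then pass electrons through the electron transfer flavoprotein to its ubiquinone oxidoreductase and so to the respiratory chain. Oxidative muscle relies on this pathway during long exercise, and fast glycolytic muscle such as EDL less so. Many of the genes are known targets of the PPAR and ERR nuclear receptors, on which RIP140, the product of Nrip1, is known to act as a corepressor.

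Nrip1, counted over the whole gene, went against its label. Without training it stood at 3.60, 2.55 and 3.84 FPKM where the label was WT and 15.5, 16.3 and 14.9 FPKM where it was strNrip1-/-. With training the values were 2.53, 4.76 and 3.56 FPKM for WT and 20.7, 14.9 and 16.6 FPKM for strNrip1-/-. It was therefore higher in every library labelled strNrip1-/-. The floxed exon holds both the start and the stop codon, and the other exons are not flanked by the loxP sites. The gene-level values do not separate the floxed exon from the other exons, so they do not show whether it was lost. Libraries are accordingly named as labelled, and every direction between genotypes rests on those labels. Depth, judged from the steps between low values, was about 20000000 to 29150000 fragments per library, and no 2 libraries held identical values. At that depth, and taking the longest annotated transcript as length, the lowest value of any of the 10 genes rested on at most about 1167 fragments. Its counting error was thus at least 2.93%, and by the same reckoning every other value rested on more fragments. The tissue label was borne out by fast-fiber genes, which summed to 114050 to 181788 FPKM, while the 3 heart muscle genes found, of 4 sought, summed to 3.52 to 6.73 FPKM with Nppa at 0 in 6 libraries.

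Coordinates are on GRCm38 (mm10), and each value counts exons of the whole gene. Cpt1b lies at chr15:89416405-89425863, Cpt2 at chr4:107903981-107923610, Acadvl at chr11:70010183-70015411, Acadl at chr1:66830839-66863277 and Acadm at chr3:153922357-153944632, all on the minus strand. Hadh at chr3:131233419-131272101, Etfdh at chr3:79603788-79629500 and Hadha at chr5:30118304-30155162 are on the minus strand too, whereas Hadhb at chr5:30155248-30184593 is on the plus strand. In the file the genes carry the Ensembl identifiers ENSMUSG00000078937, ENSMUSG00000028607, ENSMUSG00000018574, ENSMUSG00000026003, ENSMUSG00000062908, ENSMUSG00000025745, ENSMUSG00000059447, ENSMUSG00000027984, ENSMUSG00000027809 and ENSMUSG00000036880, from Cpt1b to Acaa2 in the order first given. Acadm, Hadh and Etfdh thus share chromosome 3 without being neighbours. Hadha and Hadhb, the 2 subunits of one enzyme, are neighbours on chromosome 5 that point away from each other, with 85 bases between their annotated starts. That stretch (chr5:30155163-30155247, plus strand, RefSeq window on GRCm38.p6) lies in no annotated exon and is shown because it is upstream of both genes at once:
Hadha-Hadhb: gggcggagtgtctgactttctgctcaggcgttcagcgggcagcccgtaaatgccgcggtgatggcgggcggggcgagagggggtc

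RefSeq promoter windows of 300 bases, 250 before and 50 after the RefSeq gene start, were found for 8 of the 10 genes and searched on both strands for 3 motifs. RefSeq starts are not the gene starts given above, which are from GENCODE: they lie within 32 bases of each other for 6 of the 8 genes, but the RefSeq start is 182 bases inside the gene for Hadha and 733 bases inside for Etfdh. The Etfdh window thus lies wholly inside the gene as given above, and 232 of the 300 bases of the Hadha window do too. The nuclear receptor hexamer, AGGTCA, was in 2 of the 8 windows, against 16.3% of 32851 windows of the same length. The ERR element, TCAAGGTCA, which contains the hexamer, was in 0 of 8, against 0.423%, and a direct repeat of the hexamer with 1 base between its copies and at most 2 mismatches in all, the kind of element that PPAR binds with RXR, was in 0 of 8, against 3.86%. The Hadha and Hadhb windows share 228 bases, so those 8 windows are not all separate. The 2 hexamers are in the windows of Acadvl, 87 bases before its RefSeq start, and of Acadm, 249 bases before its RefSeq start and on the other strand. The 60 bases that hold each are shown on the minus strand, the strand of both genes, with the hexamer in capitals, at chr11:70015483-70015542 for Acadvl and chr3:153944834-153944893 for Acadm:
Acadvl: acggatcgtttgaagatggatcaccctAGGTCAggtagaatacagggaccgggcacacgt
Acadm: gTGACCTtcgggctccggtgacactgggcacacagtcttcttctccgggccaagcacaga
Median GC content was 59.7% in the 8 windows and 52.7% in all windows. These matches describe letters in a short window that for Etfdh, and for most of Hadha, is not upstream of the GENCODE start, and binding was not measured.

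In sedentary muscle 9 of the 10 enzymes were called higher in libraries labelled strNrip1-/- than in libraries labelled WT, and in trained muscle all 10 were. A gene was called when its limma p-value, adjusted over all 12744 genes by the Benjamini-Hochberg method, fell below 0.05 with a fold change over 1.2. By that rule 1.92% of all genes were called higher and 1.59% lower in sedentary libraries, and 3.21% higher and 2.77% lower in trained libraries. The median log2 fold change of the 10 genes was 0.61 in sedentary and 0.59 in trained libraries, beside medians of 0.00 and 0.01 over all genes. Fold changes ran from 1.11 to 1.58 in sedentary and from 1.27 to 1.73 in trained libraries. For all 10 genes in both states, the lowest library labelled strNrip1-/- stood above the highest labelled WT, which was so for 9.79% of all genes in sedentary and 13.9% in trained libraries. Leaving out single libraries gave 6 to 9 calls in sedentary and 8 to 10 in trained muscle, the fewest without labelled WT sedentary replicate 1 or 3 or strNrip1-/- sedentary replicate 1 and without labelled WT trained replicate 1 or 3 or strNrip1-/- trained replicate 2. Because EDL is a bulk sample, more mitochondria-rich fibers and more RNA of these genes in each fiber cannot be told apart.

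**Figure D1:**
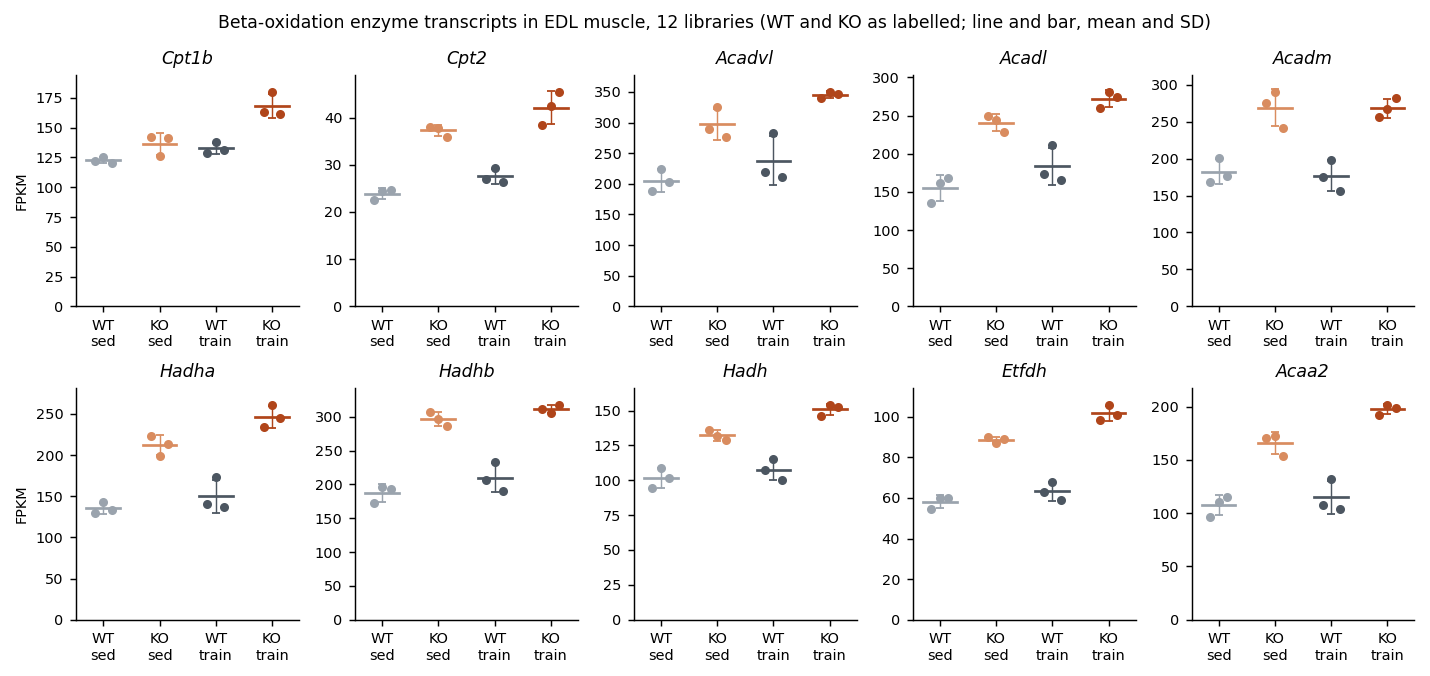
FPKM of each of the 10 enzyme genes (y axis, starting at 0) in the 4 groups (x axis, genotype as labelled); points are the 3 libraries of a group, and the line and bar are their mean and SD. In every panel the points labelled KO (strNrip1-/-) stand above the points labelled WT of the same training state, by the least in sedentary Cpt1b, where 125.8 follows 125.5 FPKM.

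Markers of other cells moved with some groups. The 11 fast-fiber genes, all found, summed to 152511 to 169364 FPKM in labelled WT and 114050 to 152735 FPKM in labelled strNrip1-/- sedentary libraries, and to 150305 to 181788 and 131768 to 136455 FPKM in trained libraries. The 8 slow-fiber genes summed to 128 to 418 and 153 to 433 FPKM in sedentary and to 116 to 722 and 181 to 332 FPKM in trained libraries, with labelled WT trained replicate 2, strNrip1-/- sedentary replicate 1 and WT sedentary replicate 2 highest. The 8 white adipocyte genes summed to 171 to 214 and 232 to 352 FPKM in sedentary and to 208 to 249 and 219.97 to 336 FPKM in trained libraries, and the 7 endothelial genes to 129.6 to 135 and 135 to 161, and to 116 to 131 and 140.4 to 148 FPKM. Fast-fiber sums were thus lower in the labelled strNrip1-/- trained libraries without overlap and adipocyte sums higher in the labelled strNrip1-/- sedentary libraries without overlap, as were endothelial sums in trained libraries. Single genes did not all follow. Trained Ckm and Tnni2 overlapped, and Myh1 leaned the other way, at 1361 to 2009 FPKM in labelled WT and 1906 to 2700 FPKM in labelled strNrip1-/- libraries. The sedentary fast-fiber sums overlapped only through labelled strNrip1-/- replicate 2. Sedentary Acta1, Ckm, Mylpf, Myh4, Actn3 and Atp2a1 were lower in labelled strNrip1-/- libraries without overlap, while Myh1, Tnnt3, Tnni2, Tnnc2 and Pvalb overlapped. Of the adipocyte genes only Cfd, Cidec and Adrb3 were apart in sedentary libraries. Of the endothelial genes only Cdh5, Egfl7 and Pecam1 were apart in trained ones. No fast-fiber, slow-fiber, adipocyte or endothelial gene was listed at 0. Macrophage genes summed to 23.2 to 43.0 FPKM, brown adipocyte genes to 2.98 to 10.6 FPKM and blood genes to 723 to 1834 FPKM over the 12 libraries. Ucp1, which defines brown fat, was at 0 to 3.80 FPKM, with 0 in 2 libraries. Without the 3 libraries highest in slow-fiber genes, 8 of the 10 enzymes were called without training and 9 with it. Without the 3 highest in adipocyte genes, 8 were called in trained libraries, where 272 of all genes were. This set leaves a single labelled strNrip1-/- sedentary library that is assumed to vary like the others, so no sedentary calls are given. The sedentary log2 fold changes were then 0.21 to 0.72, beside 0.15 to 0.66 with all libraries. Fabp4 alone, at 159 to 236 FPKM over the 12 libraries, made up most of each adipocyte sum. Adipoq was at only 0.79 to 10.3 FPKM, and the sedentary groups overlapped in both genes. Whether the Fabp4 RNA came from adipocytes was not tested. Labelled strNrip1-/- sedentary replicate 2, in the set, had Cfd at 35.3 and Adipoq at 3.10 FPKM. Labelled WT trained replicate 3, outside it, had 55.4 and 7.71 FPKM, while Fabp4, Cidec and Adrb3 were the other way round. The adipocyte set thus depends on how the sum is made, and both sets were chosen after seeing the data. The part of fiber makeup, adipocyte RNA and endothelial RNA in the differences was not tested.

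The carnitine palmitoyltransferases open the pathway. Cpt1b, the muscle form of CPT1 and the step at which malonyl-CoA limits entry, was at 122, 125 and 121 FPKM in labelled WT sedentary and 142, 126 and 141 FPKM in labelled strNrip1-/- sedentary libraries. In trained libraries Cpt1b was at 129, 138 and 131 FPKM in WT and 163, 180.2 and 162 FPKM in strNrip1-/-. The sedentary groups nearly touch, the lowest strNrip1-/- library being almost level with the highest WT library, and the trained groups are well apart. Cpt1b was the one enzyme not called in sedentary libraries, with a log2 fold change of 0.15 (95% interval 0.00 to 0.30, limma adjusted p = 0.303), and in trained libraries it rose by 0.34 on the same scale (0.19 to 0.49, adjusted p = 0.0158). The trained call was lost without labelled WT replicate 1 (adjusted p = 0.0657) or replicate 3 (0.0586) or strNrip1-/- replicate 2 (0.0696). Its sedentary value was −0.0042 after scaling all libraries to equal sums, a setting that moves the median of all genes by −0.14. Cpt1b shares 2744 exon bases with Gm44502 on the same strand, which was listed at 0.26 to 1.42 FPKM.

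Cpt2, the inner membrane partner that hands the acyl group back to CoA, was called in both states. Its level was 22.6, 24.5 and 24.6 FPKM in labelled WT and 38.1, 37.8 and 35.9 FPKM in labelled strNrip1-/- sedentary libraries, and 26.98, 29.4 and 26.4 FPKM against 38.4, 42.5 and 45.5 FPKM in trained libraries. All strNrip1-/- libraries were above all WT libraries whatever the training, with a wide gap in the sedentary pair. The log2 fold changes were 0.63 (0.46 to 0.80, limma adjusted p = 0.00135) and 0.60 (0.43 to 0.77, 0.00155). The level of Cpt1b relative to Cpt2 within a library was 4.90 to 5.38 in labelled WT and 3.33 to 3.93 in labelled strNrip1-/- sedentary libraries, and 4.70 to 4.97 and 3.55 to 4.25 in trained libraries. The ratio was thus lower in every library labelled strNrip1-/-, and since this pair was chosen after its values were seen, it has no test.

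The 3 straight-chain acyl-CoA dehydrogenases among the 10 split the first oxidation by chain length. Acadvl, for very long chains and bound to the inner membrane, was at 187, 225 and 203 FPKM in labelled WT and 290.2, 325 and 277 FPKM in labelled strNrip1-/- sedentary libraries. With training Acadvl stood at 219, 284 and 211 FPKM and 339, 350.3 and 347 FPKM. One labelled WT trained library, replicate 2, was far above the other 2 of its group and reached the level of sedentary strNrip1-/- libraries, but the compared groups did not overlap. Acadvl rose by 0.54 (0.29 to 0.78, limma adjusted p = 0.0246) and 0.55 (0.30 to 0.80, 0.0164) on the log2 scale, with the widest intervals of the 10 genes. Its sedentary call was lost on leaving out labelled WT replicate 1 (adjusted p = 0.112) or 3 (0.0825) or strNrip1-/- replicate 1 (0.0649) or 2 (0.0739), and its trained call on leaving out labelled WT replicate 1 (0.0669) or 3 (0.0666) or strNrip1-/- replicate 2 (0.0626) or 3 (0.0644). The gene shares 1151 exon bases with Dvl2 on the opposite strand, which the kit cannot separate and which was listed at 2.7 to 5.2 FPKM.

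Acadl, the long-chain dehydrogenase, was at 136, 162 and 168 FPKM in labelled WT and 249.7, 244 and 229 FPKM in labelled strNrip1-/- sedentary libraries. The trained values were 173, 211 and 166 FPKM and 259.7, 281 and 275 FPKM. Again replicate 2 was the highest of the labelled WT trained libraries, below every strNrip1-/- library. The log2 fold changes of Acadl were 0.64 (0.41 to 0.86, limma adjusted p = 0.00710) and 0.57 (0.35 to 0.80, 0.00873). Acadm, the medium-chain dehydrogenase, was at 169, 201 and 176 FPKM and 275, 290.4 and 241 FPKM in the sedentary and at 175, 199 and 156 FPKM and 256, 267 and 281 FPKM in the trained groups. Here the trained and sedentary ranges overlapped within each labelled genotype. Acadm rose by 0.56 (0.34 to 0.79, limma adjusted p = 0.0137) and 0.60 (0.38 to 0.83, 0.00686) between genotypes, and its sedentary call was lost without labelled WT replicate 1 (0.0682) or 3 (0.0567) or strNrip1-/- replicate 1 (0.0513).

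The trifunctional protein carries out the later steps on long chains. Hadha, its alpha subunit with the hydratase and dehydrogenase activities, was at 129.9, 143 and 133 FPKM in labelled WT and 223, 199 and 214 FPKM in labelled strNrip1-/- sedentary libraries, and at 140.1, 173 and 137 FPKM and 234, 261 and 245 FPKM in trained libraries. Hadhb, the beta subunit with the thiolase activity, was at 172, 197 and 194 FPKM and 307, 297 and 286 FPKM in sedentary and at 207, 233 and 191 FPKM and 311, 305 and 318 FPKM in trained libraries. For both genes the groups compared did not overlap, and labelled WT trained replicate 2 was again the highest of its group. Hadha rose by 0.65 (0.45 to 0.85, limma adjusted p = 0.00344) and 0.72 (0.52 to 0.92, 0.00150). Hadhb rose by 0.66 (0.49 to 0.84, 0.00124) and 0.57 (0.40 to 0.75, 0.00241), and neither gene lost its call when any 1 library was left out. The ratio of Hadha to Hadhb within a library, which no scaling between libraries can change, was 0.722 ± 0.035, 0.715 ± 0.039, 0.713 ± 0.033 and 0.793 ± 0.055 (SD, n = 3 each) in the order WT and strNrip1-/- sedentary, then WT and strNrip1-/- trained. Its difference between genotypes was 0.07 on the log2 scale with an exact two-sided permutation p = 0.215 over 400 relabellings within training state (0.43 adjusted over 2 ratios), where the smallest p possible is 0.005. The sedentary groups overlapped, at 0.685 to 0.753 in WT and 0.671 to 0.746 in strNrip1-/- libraries, and the trained groups did not, at 0.678 to 0.743 and 0.751 to 0.854. A shift in the subunit ratio over both states was not detected by the test, which does not show that the ratio is the same, and without labelled strNrip1-/- sedentary replicate 2 the difference was 0.10 with an exact permutation p = 0.05. Hadha also shares 75 exon bases with Garem2 on the opposite strand.

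Hadh and Acaa2 finish the cycle on shorter chains. Hadh, the soluble 3-hydroxyacyl-CoA dehydrogenase, was at 94.6, 109 and 102 FPKM in labelled WT and 136, 132 and 129 FPKM in labelled strNrip1-/- sedentary libraries, and at 107, 116 and 100.1 FPKM and 146, 154 and 153 FPKM in trained libraries. It showed, after Cpt1b, the smallest differences of the 10, with log2 fold changes of 0.38 (0.22 to 0.54, limma adjusted p = 0.0154) and 0.49 (0.33 to 0.65, 0.00314). The sedentary call was lost without labelled WT replicate 1 (0.0767) or 3 (0.0567), without strNrip1-/- replicate 1 (0.0593) and after scaling to equal sums (0.0876). Acaa2, the mitochondrial 3-ketoacyl-CoA thiolase, encoded on the plus strand at chr18:74779197-74806208, was at 96.7, 111 and 115 FPKM and 171, 172 and 154 FPKM in sedentary and at 108, 132 and 104 FPKM and 193, 202 and 198 FPKM in trained libraries. The strNrip1-/- trained libraries of Acaa2 lay close together and above every other library, and its trained log2 fold change of 0.79 (0.57 to 1.003, limma adjusted p = 0.00129) was the largest of the 10 in the 2 comparisons. In sedentary libraries Acaa2 rose by 0.62 (0.41 to 0.84, 0.00625).

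Etfdh, the inner membrane oxidoreductase that passes electrons from the flavoprotein to ubiquinone, gave the lowest adjusted p-values of the 10. Its level was 54.6, 59.9 and 60.01 FPKM in labelled WT and 89.98, 87.3 and 88.98 FPKM in labelled strNrip1-/- sedentary libraries, and 62.8, 68.01 and 58.9 FPKM and 98.7, 106 and 101 FPKM in trained libraries. Both genotype gaps were wider than the range of any group. Etfdh rose by 0.61 (0.46 to 0.76, limma adjusted p = 0.000908) and 0.68 (0.53 to 0.83, 0.000354). It shares 278 exon bases with the opposite-strand gene 4930579G24Rik.

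**Figure D2:**
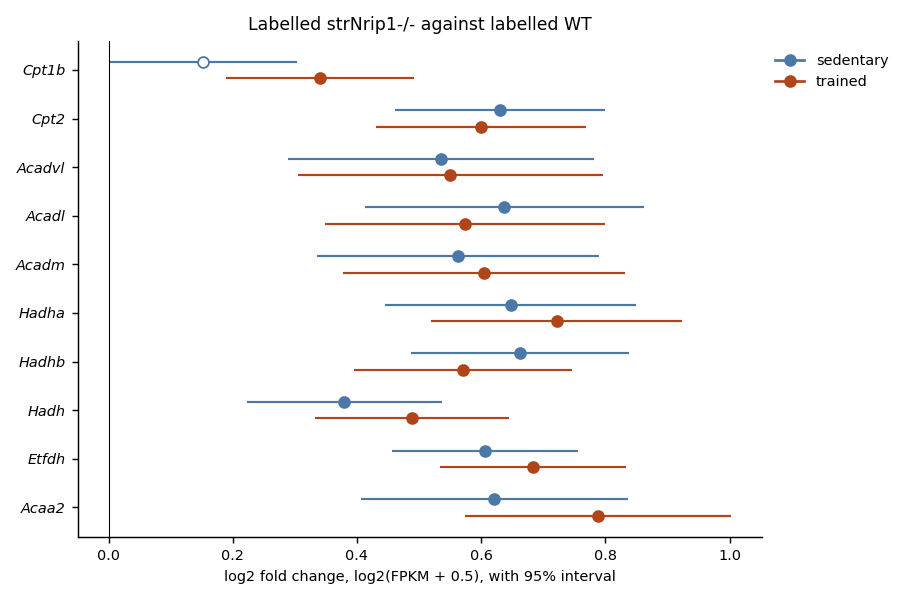
Log2 fold change of labelled strNrip1-/- against labelled WT libraries (x axis, log2(FPKM + 0.5) scale) for each enzyme gene, with limma 95% intervals, in sedentary (blue) and trained (red) muscle; filled points were called and the open point, sedentary Cpt1b at 0.15, was not. Cpt1b and Hadh lie nearest to 0, and trained Acaa2 at 0.79 lies furthest.

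Relative to each other the 10 genes kept much the same order of level. By their mean over the 12 libraries, in FPKM and so per transcript length, Acadvl (271 FPKM), Hadhb (252), Acadm (224), Acadl (213) and Hadha (186) were the most abundant, followed by Acaa2 (146), Cpt1b (139.96), Hadh (123), Etfdh (78) and Cpt2 (32.7). Hadha stood above Acaa2, Hadh above Etfdh and Etfdh above Cpt2 in all 12 libraries and without overlap in each of the 4 groups. The order of Acaa2 and Cpt1b followed the labelled genotype, since Acaa2 was the higher in 6 of the 12 libraries, which were those labelled strNrip1-/-, and Cpt1b in those labelled WT. Acadm was above Acadl in 8 libraries and overlapped with it in 3 of the 4 groups. Acadvl exceeded Hadhb in 10 libraries, but the 2 genes overlapped in 3 of the 4 groups. The range within a library from the highest to the lowest of the 10 was 7.62-fold to 9.65-fold. Summed, they came to 1279 ± 87.6 FPKM (SD, n = 3) for WT and 1876 ± 70.4 FPKM for strNrip1-/- without training, and to 1404 ± 158 and 2104 ± 57.4 FPKM with it.

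Training was not found to change any of the 10 genes. In labelled WT libraries the log2 fold changes of trained over sedentary ran from −0.04 for Acadm to 0.24 for Acadl, and in labelled strNrip1-/- libraries from 0.00 for Acadm to 0.30 for Cpt1b. None was called by limma in either genotype, where 0% of all genes were called higher, and none by the interaction, where again 0% passed. At an unadjusted p under 0.05 there were 2 of the 10 in WT (1061 of 12744 genes), 6 of the 10 in strNrip1-/- (1544 of 12744) and 0 of the 10 for the interaction (989 of 12744). The 2 in WT were Cpt2 at 0.20 (95% interval 0.03 to 0.37, limma adjusted p = 0.518) and Acadl at 0.24 (0.01 to 0.46, 0.562). In strNrip1-/- libraries Cpt1b had the largest value, 0.30 (0.15 to 0.45, 0.200), followed by Acaa2 at 0.26 (0.04 to 0.47, 0.343). Trained libraries stood above sedentary ones without overlap for 2 of the 10 genes in WT, beside 7.76% of all genes, and for 8 of the 10 in strNrip1-/-, beside 9.4%. The comparisons share libraries with the genotype comparisons, so these counts are not separate evidence. With all libraries scaled to equal sums, 5 of the 10 were called in strNrip1-/- libraries, Cpt1b, Acadvl, Hadh, Etfdh and Acaa2, with limma adjusted p-values of 0.0298 to 0.0499. Of all 12744 genes 150 were then called, 143 higher and 7 lower. That scaling raised the median of all genes in this comparison by 0.16, against log2 fold changes of 0.37 to 0.48 for these 5.

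Acadm had training log2 fold changes nearest to 0, at −0.04 (−0.27 to 0.18) in labelled WT and 0.00 (−0.23 to 0.22) in labelled strNrip1-/- libraries, and the intervals bound how large a change could have been missed. Differences between the genotype effects in the 2 training states were small, from −0.09 for Hadhb to 0.19 for Cpt1b, and the lowest limma adjusted p of the 10 interactions was 0.665. That Cpt1b was called in trained and not in sedentary libraries is therefore not a difference between the states that the test supports.

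**Figure D3:**
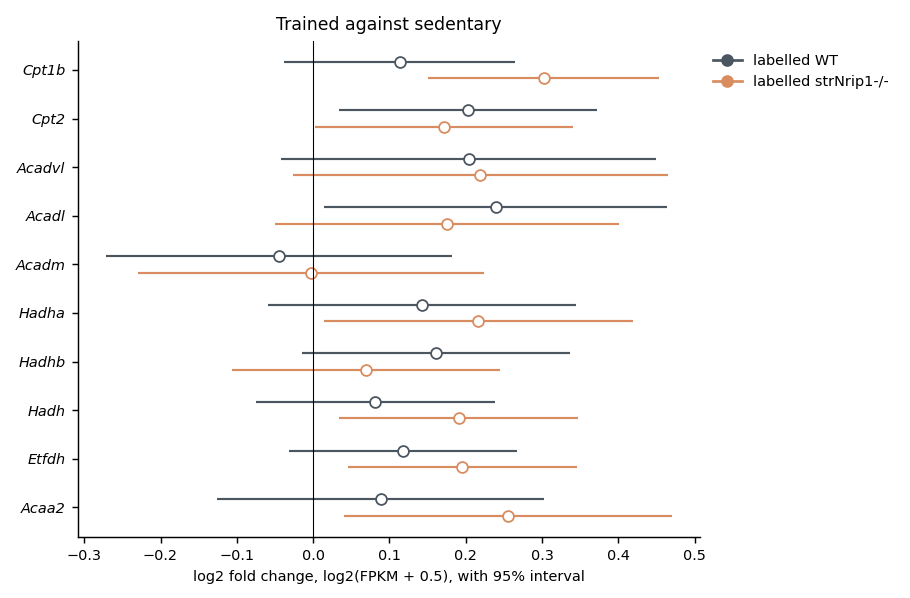
Log2 fold change of trained against sedentary libraries (x axis, log2(FPKM + 0.5) scale) for each enzyme gene, with limma 95% intervals, in libraries labelled WT (dark) and labelled strNrip1-/- (orange). All points are open because none was called, and they run from −0.04 to 0.30.

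Other genes of the pathway were described by lists. Among 10 genes of activation and the carnitine shuttle, 2 were called higher and 1 lower in each training state, with medians of 0.03 in sedentary and 0.12 in trained libraries. Slc25a20, the carnitine-acylcarnitine carrier that works between CPT1 and CPT2, was at 42.3, 48.03 and 49.9 FPKM in labelled WT and 81.8, 72.6 and 75.98 FPKM in labelled strNrip1-/- sedentary libraries, and at 52.1, 60.99 and 49.2 FPKM and 85.01, 103 and 87.1 FPKM in trained libraries. It rose by 0.71 (SE 0.10, limma adjusted p = 0.00395) and 0.76 (SE 0.10, 0.00215). The sedentary rise was above those of all 10 enzymes, the highest being 0.66 for Hadhb, and the trained rise was below only that of Acaa2 (0.79). Acsl1, the main acyl-CoA synthetase of muscle, rose by 0.56 (limma adjusted p = 0.0208) and 0.61 (0.0102). Acsl3, a synthetase of the endoplasmic reticulum and lipid droplets with levels of only 2.56 to 8.31 FPKM, fell by 0.99 in sedentary (0.0300) and by 0.94 in trained libraries (0.0274). The sedentary call of Acsl1 was lost without any labelled WT sedentary library or strNrip1-/- replicate 2 or 3, that of Acsl3 without labelled WT replicate 2 or 3 or any strNrip1-/- sedentary library, and the trained call of Acsl3 without labelled WT replicate 1 or 2 or any strNrip1-/- trained library. Crat, which makes and uses acetylcarnitine, was at 172 to 214 FPKM in all 12 libraries and was not called. Cpt1a, the liver form of CPT1, was at 2.37 to 4.48 FPKM, between 0.0169 and 0.0318 of the Cpt1b level, and the log2 ratio of Cpt1a to Cpt1b differed by 0.06 between genotypes (exact two-sided permutation p = 0.755 over 400 relabellings). Cpt1c, the brain form, was at 0.448 to 1.95 FPKM and was not called.

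**Figure D4:**
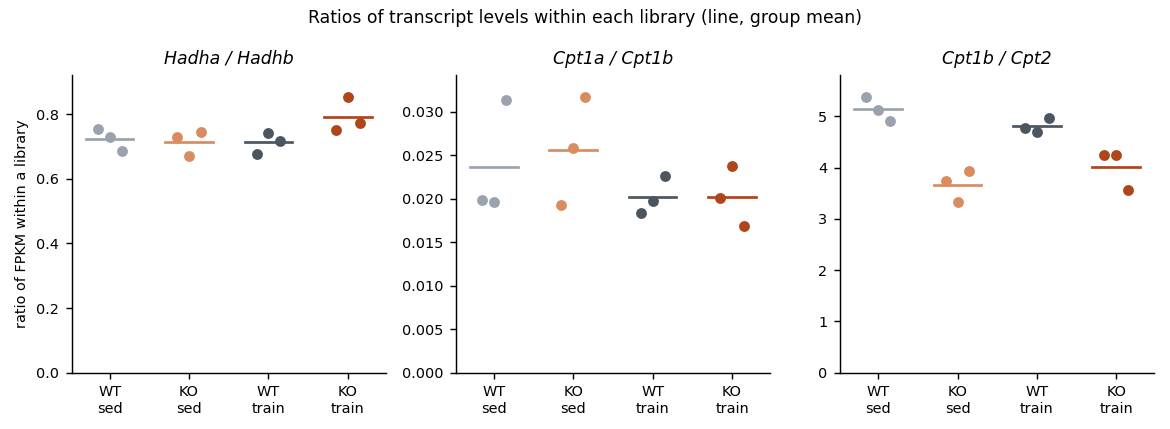
Ratios of FPKM within each library (y axes, starting at 0) for Hadha over Hadhb, Cpt1a over Cpt1b and Cpt1b over Cpt2 in the 4 groups (genotype as labelled); points are libraries and lines are group means. Hadha over Hadhb overlaps between genotypes in sedentary muscle and not in trained muscle (0.678 to 0.743 in WT, 0.751 to 0.854 in KO), and Cpt1b over Cpt2 runs from 3.33 to 4.25 in all libraries labelled KO (strNrip1-/-) and from 4.70 to 5.38 in all labelled WT.

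Of 11 other mitochondrial enzymes and electron carriers, 2 were called higher in sedentary and 4 in trained libraries, with medians of 0.26 and 0.29. Etfa, the alpha subunit of the flavoprotein that feeds Etfdh, was at 177, 221 and 208 FPKM in labelled WT and 325, 345 and 281 FPKM in labelled strNrip1-/- sedentary libraries, and at 205, 233 and 195 FPKM and 318, 333 and 353 FPKM in trained libraries. Etfa rose by 0.65 (limma adjusted p = 0.00712) and 0.67 (0.00461). Etfb, the beta subunit, had log2 fold changes of 0.33 (0.226) and 0.55 (0.0306), so only the trained one was called, and that call was lost on leaving out any of 5 trained libraries (all but labelled WT replicate 2). Acads, the short-chain dehydrogenase, rose by 0.34 (0.0208) and 0.57 (0.00111), and Echs1, the short-chain hydratase, was called in trained libraries at 0.51 (0.0118; sedentary 0.33, 0.105). The sedentary call of Acads was lost without labelled WT replicate 1 or 3 or strNrip1-/- replicate 1 or 2, and the trained call of Echs1 without labelled strNrip1-/- trained replicate 3. Acadsb, Acad9, Acad10, Acad11, Acad12, Hsd17b10 and Acat1 were not called in either state. Hsd17b10 and Acadsb, which act in branched-chain amino acid breakdown, had log2 fold changes of 0.00 and 0.02, and 0.12 and 0.09.

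Of 4 auxiliary enzymes for unsaturated fatty acids, 1 was called in each state, with medians of 0.35 and 0.34. Decr1, the dienoyl-CoA reductase, was called in sedentary libraries at 0.45 (limma adjusted p = 0.0276; trained 0.23, 0.196), and Ech1, the dienoyl-CoA isomerase, in trained libraries at 0.64 (0.0197; sedentary 0.51, 0.0695). Of 5 thioesterases tested, Acot2 was called in trained libraries at 0.99 (0.0277), on levels of 7.37, 7.67 and 7.67 FPKM in labelled WT and 13.7, 23.7 and 11.5 FPKM in labelled strNrip1-/- libraries, of which replicate 2 was highest. Acot1 is a near-identical copy of Acot2, so the values of both, and with them the call of Acot2, are uncertain. Of 4 genes of the propionyl-CoA branch, Pccb was called in trained libraries at 0.64 (0.0118; sedentary 0.40, 0.107). Calls of these smaller lists rested on few libraries: Decr1 was lost without any of 5 sedentary libraries (all but labelled strNrip1-/- replicate 3), Ech1 without any of 4 trained ones (labelled WT replicates 1 and 3, strNrip1-/- replicates 2 and 3), Acot2 without any WT trained library or strNrip1-/- replicate 2, and Pccb without labelled WT trained replicate 1 or strNrip1-/- replicate 2 or 3.

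The genes that set malonyl-CoA, the inhibitor of CPT1, gave no call in sedentary and 1 in trained libraries, of 3 tested, with medians of 0.04 and 0.42. Mlycd, the decarboxylase that removes malonyl-CoA, was at 39.4, 42.7 and 44.2 FPKM in labelled WT and 44.97, 45.6 and 48.3 FPKM in labelled strNrip1-/- sedentary libraries, and at 37.2, 42.8 and 43.5 FPKM and 63.7, 91.3 and 63.9 FPKM in trained libraries. The labelled strNrip1-/- trained libraries stood well above the rest, which lay within a narrow range, and the trained log2 fold change was 0.80 (limma adjusted p = 0.00461) against 0.14 (0.689) in sedentary libraries. The interaction of 0.66 had a limma adjusted p of 0.536, so a difference between the states was not shown. Acacb, the carboxylase that makes malonyl-CoA at the mitochondrial surface, was highest in the same libraries at 52.2, 75.8 and 64.1 FPKM, beside 47.2, 46.95 and 47.2 FPKM in the trained WT group, and was not called (0.42, 0.0754). Acaca, its cytosolic counterpart, was at 1.49 to 3.50 FPKM and was not called either.

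Peroxisomal beta-oxidation, which shortens very long and branched chains outside the mitochondrion, was covered by 14 tested genes, with Acox2 below the filter. Their median log2 fold changes were 0.17 in sedentary and 0.17 in trained libraries, and 1 of them was called in trained libraries. Hsd17b4, the peroxisomal bifunctional enzyme, was called in trained libraries at 0.39 (limma adjusted p = 0.0173; sedentary 0.23, 0.161), and not without labelled WT trained replicate 1 or 3 or strNrip1-/- trained replicate 2. Ehhadh, a PPAR target of liver, was at 2.75 to 5.42 FPKM and was not called.

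**Figure D5:**
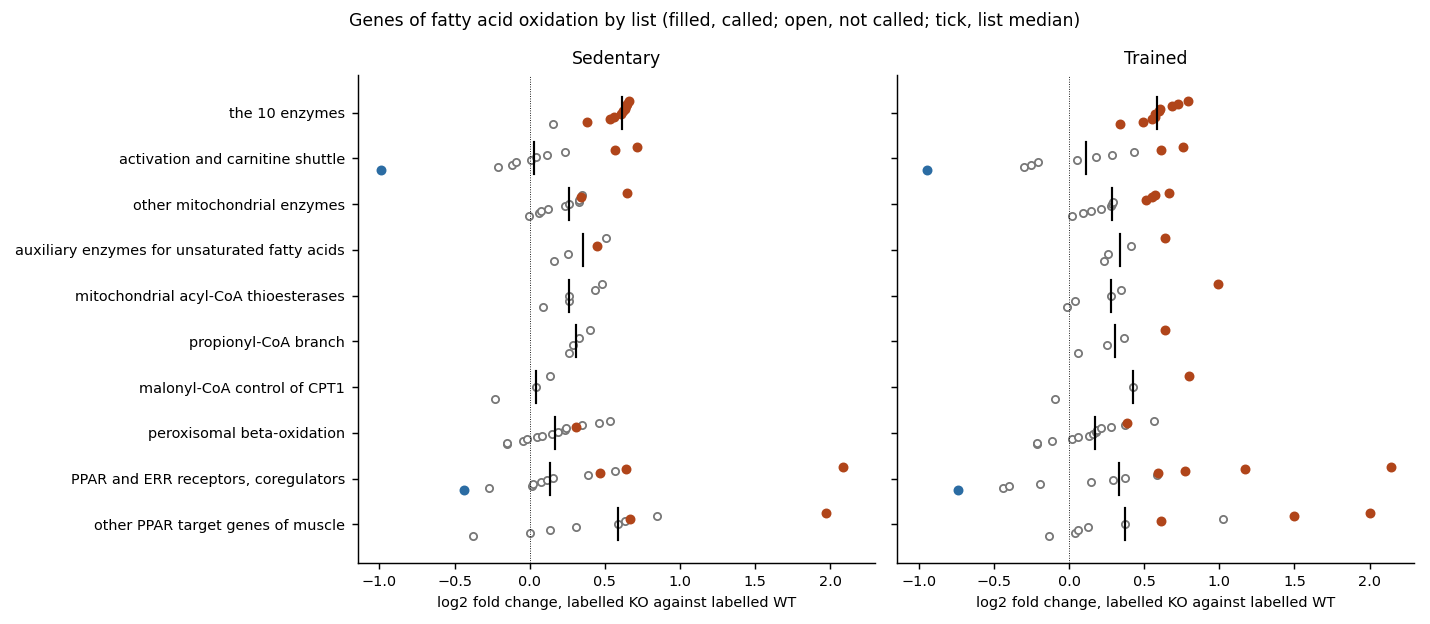
Log2 fold change of labelled strNrip1-/- (KO) against labelled WT libraries (x axis) for every tested gene of each list (rows), in sedentary (left) and trained (right) muscle; filled points were called higher (red) or lower (blue), open points were not called, and the tick is the list's median. The 10 enzymes have medians of 0.61 and 0.59, while the lists of the shuttle, peroxisomal and malonyl-CoA genes have sedentary medians of 0.03, 0.17 and 0.04. The other lists have sedentary medians from 0.14 to 0.59, the highest being that of the other PPAR target genes, and the malonyl-CoA list has a trained median of 0.42.

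Of 12 PPAR and ERR receptors, partners and coregulators, counting Nrip1 itself, 3 were called higher and 1 lower in sedentary, and 4 higher and 1 lower in trained libraries. Esrra, the receptor ERR-alpha, was at 70.8, 71.3 and 69.8 FPKM in labelled WT and 96.6, 104 and 94.05 FPKM in labelled strNrip1-/- sedentary libraries, and at 70.9, 74.5 and 65.1 FPKM and 114, 127 and 120.2 FPKM in trained libraries. Esrra rose by 0.47 (limma adjusted p = 0.00416) and 0.77 (0.000172), and Esrrb, at 1.24 to 2.66 FPKM, by 0.64 (0.0148) and 0.59 (0.0162). Rxrg, a partner of the PPARs, fell by 0.43 (0.0343) and by 0.74 (0.00175). The sedentary call of Rxrg was lost on leaving out any 1 library except labelled WT sedentary replicate 3 and replicate 2 of either trained group, and those of Esrrb without labelled WT replicate 1 or 3 or strNrip1-/- replicate 1 (sedentary), or labelled WT replicate 1 or 3 or strNrip1-/- replicate 2 or 3 (trained). Ppargc1b, the coactivator PGC-1beta, was called in trained libraries at 1.17 (0.0341), a call lost when any of 6 libraries was left out: labelled WT trained replicate 1 or 2, strNrip1-/- trained replicate 2 or 3, labelled WT sedentary replicate 1 or strNrip1-/- sedentary replicate 1. Ppara, Ppard and Pparg were not called, with log2 fold changes of 0.02, 0.01 and 0.39 in sedentary and 0.59, 0.15 and 0.29 in trained libraries.

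Among 9 other PPAR target genes of muscle, 2 were called higher in sedentary and 3 in trained libraries, with medians of 0.59 and 0.38. Fabp3, the fatty acid binding protein of muscle cytosol, was at 325, 409.6 and 362 FPKM in labelled WT and 1312, 1586 and 1399.9 FPKM in labelled strNrip1-/- sedentary libraries, and at 423, 532 and 362 FPKM and 1690.4, 1917 and 1628 FPKM in trained libraries. Its rises of 1.97 (limma adjusted p = 4.54e-05) and 2.01 (3.13e-05) were far above those of the 10 enzymes, and the level of Fabp3 relative to Hadha was 2.51 to 3.07 in all labelled WT and 5.87 to 7.95 in all labelled strNrip1-/- libraries. Cd36, the fatty acid translocase of the plasma membrane, rose by 0.67 (0.00891) and 0.61 (0.0101). Slc25a34, a mitochondrial carrier, was called in trained libraries at 1.497 (0.00740; sedentary 0.63, 0.247). Pdk4 and Ucp3, both raised by fasting and free fatty acids, were not called in either state.

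The genes whose pattern over the 12 libraries was most like the mean of the 10 enzymes were sought among all genes tested, by the root mean square difference of centred log2 values. They were Alas1, the first enzyme of heme synthesis (0.057), Atp5b, the beta subunit of ATP synthase (0.064), Got2, the mitochondrial aspartate aminotransferase (0.072), Bag3, a chaperone partner (0.072), and Esrrb (0.075). Esrrb was at only 1.24 to 2.66 FPKM, so the 0.5 FPKM added before taking logs understates its changes, and its rank depends on that setting. Alas1 was at 91.3 to 99.7 FPKM for WT and 131 to 138 FPKM for strNrip1-/- without training, and at 94.6 to 122 and 148 to 156 FPKM with it. Among the enzymes, Etfdh (0.051) was the closest to their mean and Cpt1b (0.183) and Acadm (0.107) the furthest. These likenesses were ranked over the libraries that also carry the genotype comparison, and carry no test.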

How the data were processed

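RNA-seq of EDL was aligned and quantified by the authors with Salmon 1.10.2 on mm10, imported with tximport and processed with DESeq2 1.44.0. The deposited table holds FPKM per gene, and the function that gave them, the annotation release and the rule for keeping genes are not given in the sources used here. Library sums and median ratios show that the FPKM were already scaled between libraries. The authors' fold changes and adjusted p-values were not used. Values were taken as log2(FPKM + 0.5), which understates changes of low genes, for the 12744 genes whose mean reached 0.5 FPKM. limma 3.58.1 with a variance trend was fitted to 4 group means over 12 libraries, and p-values were Benjamini-Hochberg adjusted over all genes. Calls needed an adjusted p under 0.05 and, except for the interaction, a fold above 1.2. The self-test used simulated data. Ratios within a library had exact permutation tests. Genes named were the 10 members, every called list gene and the 5 genes most like the members' mean, plus genes whose role a sentence needs, except that a called list gene is not reported here. The members and lists were chosen with earlier results of these data known. Alternatives covered the pseudocount, the filter, quantile and sum scaling, the libraries fitted, the variance trend, a replicate block and leaving out libraries. Coordinates came from GENCODE M21. The NEBNext Ultra kit does not keep strand. Counting error covers reads only.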

Additional observations from a re-analysis of the deposited data

How the results depend on the processing

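With all libraries, 9 of the 10 enzymes were called in sedentary and 10 in trained muscle. Leaving out each library in turn gave 6 to 9 and 8 to 10. Fitting only the libraries of a comparison gave 6 and 9. The set of the 3 libraries highest in adipocyte genes was chosen after seeing the data, by a sum that is mostly Fabp4. Without it the sedentary log2 fold changes of the 9 enzymes called with all libraries were 0.42 to 0.72. Scaling to equal sums gave 5 enzyme calls with training in strNrip1-/- libraries, where no other setting gave one, beside 150 calls among all 12744 genes. No setting gave an enzyme call with training in WT or for the interaction. The cause of these moves was not tested, except that the adipocyte setting leaves 1 library in a group.

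Of 480 recomputed genotype fold changes of the enzymes 479 were positive, the exception being Cpt1b in sedentary libraries at equal sums (-0.0042), and 37 calls were lost. Acadm with training in strNrip1-/- libraries turned to 0.17 at equal sums and 0.0160 without the 3 libraries highest in slow-fiber genes, and ran from -0.0784 to 0.0546 on leaving out single libraries. Leave-one-out ranges with training in WT were -0.132 to 0.0407 for Acadm and -0.0178 to 0.153 for Acaa2. The log2 ratio of Cpt1a to Cpt1b ran from -0.0428 to 0.165 and that of Hadha to Hadhb from 0.0316 to 0.101.

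Over all genes the genotype calls were 447 in sedentary and 762 in trained muscle, and 166 and 445 with only the comparison's libraries. They were 143 and 398 without the slow-fiber set, and 272 in trained muscle without the adipocyte set. The sedentary split of 245 higher and 202 lower became 121 and 531 at equal sums and 397 and 83 at equal nuclear sums, and the trained split of 409 and 353 became 549 and 130, and 466 and 149. Of 180 recomputed list counts 38 moved by more than 1.5 times, by at most 3 genes.

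Of 18 correlations of same-numbered deviations, -0.105 to 0.241, 5 passed 0.1. Libraries with different numbers were not compared in this way, so whether replicate numbers pair the samples was not tested. With a replicate block 9, 10, 0, 0 and 0 enzymes were called, and the ratio tests gave exact permutation p = 0.25 for Hadha to Hadhb and 0.719 for Cpt1a to Cpt1b. The 3 libraries a group limit the precision, and the part of depth in the spread was not tested.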

Other observations

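Pdk4, the kinase that restrains pyruvate entry, and Ucp3, a mitochondrial carrier, were highest in 1 library of each trained group. Pdk4 was at 92.2, 234 and 88.7 FPKM in trained libraries labelled WT and at 136, 338 and 90.9 FPKM in those labelled strNrip1-/-, against 24.8 to 94.0 FPKM in all sedentary libraries. Ucp3 was at 54.4, 161 and 62.4 FPKM and at 84.9, 134 and 62.6 FPKM in the same groups. Replicate 2 was the highest in both. None of these differences was called by limma, with adjusted p-values for training of 0.44 and 0.38 for Pdk4 and 0.464 and 0.341 for Ucp3 in WT and strNrip1-/-.

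The ERR-gamma gene Esrrg and the coactivator gene Ppargc1a were highest in trained libraries labelled WT. Esrrg was at 4.78 to 5.87 FPKM there and at 2.91 to 4.54 FPKM in the other 9 libraries, and Ppargc1a at 4.76 to 6.75 and 3.76 to 4.58 FPKM. Neither was called in a genotype or training comparison, with limma adjusted p-values between genotypes in trained muscle of 0.0686 and 0.0898. This contrast was noticed after the values were seen.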
